A study of Mus musculus with 9 samples.

Results

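Phox2a, Hand2, Gata2, Gata3, Isl1, Mycn, Insm1 and Myt1 encode transcription factors of sympathetic neuroblasts and of neuroblastoma, and their mRNAs were followed by RIP-seq of phosphorylated UPF1 (p-UPF1) in mouse N2A neuroblastoma cells. They are 8 of the 54325 gene symbols in the count table. They were taken by symbol, and the counts of the 35 transcripts that carry these symbols were summed per gene.

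In the sympathetic lineage, the homeodomain factor Phox2a acts together with Hand2 and the GATA factors to switch on the genes of noradrenaline synthesis, Isl1 sustains the neuroblasts, and MYCN amplification drives an aggressive form of neuroblastoma. UPF1 is the RNA helicase of nonsense-mediated mRNA decay (NMD), and it is phosphorylated on the mRNAs that the pathway targets. Okadaic acid inhibits protein phosphatases, and so keeps UPF1 in its phosphorylated form.

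Cells of every group were treated with 200 nM okadaic acid for 2 h. RNA was recovered with antibody to p-UPF1 (p-UPF1 IP) or with control rabbit IgG (rIgG IP), or was taken without IP (input), and short RNase I fragments were sequenced from 3 libraries per group. N2A is a single established line, and no untreated cells were compared. The labels number the replicates of each group but do not say that they came from separate cultures, so p-values measure only the spread between these libraries, which may be technical.

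Total counts were 26023968, 25184464 and 29857955 in the input libraries, 5312526, 6032142 and 6246110 in the p-UPF1 IP libraries, and 474491, 205177 and 79010 in the rIgG IP libraries. The members together took 1707, 1609 and 1713 counts in input, 771, 1030 and 956 in the p-UPF1 IP, and 25, 15 and 4 in the rIgG IP. Depth was therefore ample in input and lowest in the rIgG IP, where single members rested on a handful of fragments. A floor of 3 counts corresponds to 0.1 to 0.119 CPM (counts scaled to 1e6 per library total) in input, 0.480 to 0.565 CPM in the p-UPF1 IP and 6.32 to 38.0 CPM in the rIgG IP. Such floors and the intervals below cover counting error alone, and copies made by PCR are not separate molecules. Between 77.9% and 82.3% of each library's counts came from its 10 most-counted genes. Differences between replicate libraries exceeded Poisson sampling (chi-square over its degrees of freedom, 3.62 to 15.6), and none was treated as a copy of another.

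The cell label was checked against marker genes in input. Of 12 pan-neuronal markers, 10 had at least 10 input counts, led by Uchl1 (6089 counts) and Stmn2 (3940), while the neurofilament genes Nefl and Nefm had 0 and 1. Of 14 sympathoadrenal markers, 12 did, led by the granule proteins Chgb (3981) and Chga (1501). That list includes 5 of the members, and without them 7 of 9 did. Within that list, the catecholamine enzymes Th, Ddc and Dbh had 57, 71 and 26 counts. Mesenchymal markers reached 10 counts for 7 of 14 genes, and Vim (11599) and Fn1 (6587) were abundant while the collagens Col1a2 and Col3a1 had 0. Glial markers did so for 2 of 11, led by Erbb3 (201), with Sox10 at 1.

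Because GATA factors also act in blood and endothelium, markers of those cells were counted as well, and 3 of 13 reached 10 input counts, led by Tal1 (209) and Pecam1 (112). The erythroid genes Klf1 and Gata1 had 0 and 1, and the leukocyte gene Ptprc had 3. The sum of that list was 4.53, 4.76 and 3.72 CPM in input, 23.2, 0 and 0 CPM in the rIgG IP and 17.1, 18.1 and 15.4 CPM in the p-UPF1 IP, where Tal1 gave 267 counts. That rise is the rise of Tal1: Pecam1 had 21 counts in the p-UPF1 IP, and every other gene of the list had at most 3. The glial sum was also higher in every p-UPF1 IP library (5.84, 5.14 and 7.04 CPM) than in any input library (3.19, 3.34 and 2.81 CPM). The pan-neuronal sum went the other way, from 316, 310 and 283 CPM in input to 201, 215 and 209 CPM in the p-UPF1 IP. So did the mesenchymal sum, from 232, 232 and 222 to 152, 158 and 171 CPM. The sympathoadrenal sum, members included, rose from 133, 130 and 113 to 184, 209 and 184 CPM. The part of the blood and endothelial list or of the glial list in the members' values was not tested.

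Levels of different genes were compared in input as CPM per kb of transcript. The length was the mean over a gene's transcripts, weighted by their input counts. It was 2641 nt for Gata2 and 3198 nt for Myt1, whereas the coding transcripts Gata2-202 and Myt1-203 have 3135 and 5115 nt. The places of Gata2 and Myt1 in the order below thus rest on how counts were assigned to transcripts. Phox2a, a homeodomain factor, had the highest level among the members, 6.25 ± 0.367 CPM per kb (SD, n = 3). Gata2, a zinc finger factor, followed at 5.44 ± 0.328, and Hand2, a basic helix-loop-helix factor, at 4.71 ± 0.461. Myt1 and Insm1, both zinc finger factors of neuronal differentiation, were at 3.48 ± 0.363 and 2.44 ± 0.167. Mycn, the oncogenic MYC paralog, had 1.44 ± 0.137 CPM per kb, the LIM-homeodomain gene Isl1 1.40 ± 0.106 and Gata3 0.769 ± 0.126. Ranges of neighbours in that order overlapped for Mycn and Isl1 alone (exact permutation p = 0.6, two-sided), and each other pair of neighbours gave p = 0.1, the smallest that 3 against 3 values allow. Both genes of a pair were measured in the same 3 libraries, which that test ignores. For scale, Myc stood at 8.0 ± 0.180 CPM per kb. In bulk lysates, fewer cells with an mRNA and less of it per cell cannot be told apart.

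Setting the p-UPF1 IP against input asks which mRNAs were over-represented among p-UPF1-bound fragments. Gata2, Phox2a and Hand2 were higher in the p-UPF1 IP, at about 3.56, 2.03 and 1.81 times their input level, and the other 5 members passed in neither direction. A gene was called higher or lower at an adjusted P below 0.05 in edgeR's quasi-likelihood test, and enriched where its log2 fold change also exceeded 1. All 8 members passed the filter of 10 summed counts. Of 16919 genes tested, 26.3% were higher and 35.7% lower, against 3 and 0 of the 8 members. Enriched genes made up 17.3% of all, and 2 members, Gata2 and Phox2a, were among them. For the count of 0 lower members, edgeR at an unadjusted P below 0.05 and DESeq2 also gave 0.

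Gata2 had 371, 385 and 405 counts in input, against 342, 423 and 429 in the p-UPF1 IP, although the IP libraries were much shallower. After scaling by TMM, these were 16.1, 17.2 and 16.3 CPM in input and 58.0, 58.1 and 60.5 CPM in the p-UPF1 IP. All 3 IP libraries lay far above all 3 input libraries, with little spread in either group. The log2 fold change was 1.83 ± 0.07 (SE; edgeR adjusted P = 9.73e-09), and 8.48% of the genes tested were at or above it.

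Phox2a, a homeodomain regulator of noradrenergic identity, had 266, 233 and 276 counts in input (11.6, 10.4 and 11.1 CPM) and 126, 169 and 159 in the p-UPF1 IP (21.4, 23.2 and 22.4 CPM). Every IP library was again above every input library. Its log2 fold change was 1.02 ± 0.08 (edgeR adjusted P = 2.08e-06), just past the threshold for enrichment, and 19.3% of genes were at or above it. It fell below that threshold of 1 without a filter (log2 fold change of Phox2a, 0.94) and without input replicate 2 (0.995), while staying called higher.

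Hand2, which works with Phox2a at catecholamine genes, had 300, 299 and 294 counts in input (13.0, 13.4 and 11.8 CPM) and 138, 179 and 151 in the p-UPF1 IP (23.4, 24.6 and 21.3 CPM). The groups did not overlap, and the log2 fold change was 0.86 ± 0.09 (edgeR adjusted P = 1.47e-05), with 22.2% of genes at or above it. Hand2 was higher but fell short of the fold threshold, which it passed with library totals (1.27).

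Insm1, a transcriptional repressor of the SNAG family, had 210, 191 and 210 counts in input (9.13, 8.53 and 8.43 CPM) and 55, 91 and 65 in the p-UPF1 IP (9.33, 12.5 and 9.16 CPM). The lowest IP library was barely above the highest input library, so the groups did not overlap, but the difference was not past the threshold (log2 fold change 0.25 ± 0.13, edgeR adjusted P = 0.107). Myt1, a zinc finger factor that represses non-neuronal genes, had 322, 275 and 301 counts in input, against 68, 106 and 84 in the p-UPF1 IP. Its groups overlapped, at 12.8 ± 1.05 CPM in input and 12.6 ± 1.66 CPM in the p-UPF1 IP (SD, n = 3).

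The remaining members were the least abundant. Gata3, needed for sympathetic neuron survival, had 69, 57 and 57 counts in input, against 9, 18 and 16 in the p-UPF1 IP. Isl1 had 75, 72 and 75 against 15, 25 and 17. Mycn had 94, 97 and 95 against 18, 19 and 35, and IP replicate 3, at 4.93 CPM, was above all input libraries while the other IP libraries, at 3.05 and 2.61 CPM, were below them. For each of these genes the ranges of the groups overlapped, and the log2 fold changes were -0.31 ± 0.24 for Gata3, -0.17 ± 0.19 for Isl1 and -0.20 ± 0.22 for Mycn (edgeR adjusted P = 0.286, 0.487 and 0.444). The GATA pair thus parted, with Gata2 called higher and Gata3 not; the difference between them was not tested.

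**Figure D1:**
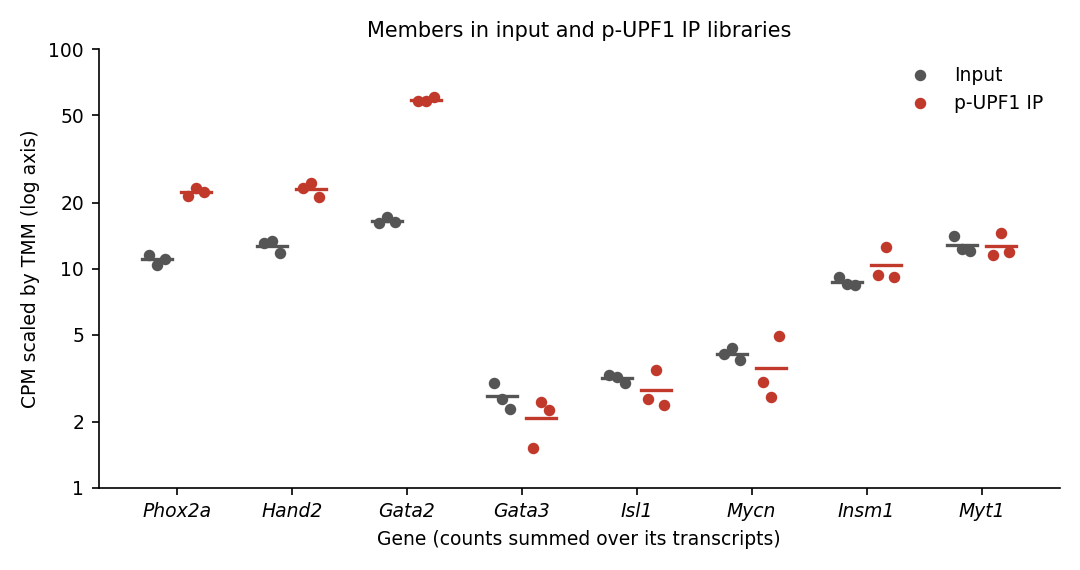
Level of each member in each input (grey) and p-UPF1 IP (red) library, as CPM scaled by TMM on a log axis; points are libraries and lines are means of 3. Gata2 moves from 16.5 to 58.8 CPM, Phox2a from 11.02 to 22.3 and Hand2 from 12.7 to 23.1, while the groups of Gata3, Isl1, Mycn and Myt1 overlap.

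The scale of these changes depends on how libraries are made comparable. The median log2 fold change over all genes was -0.42 with TMM and -0.01 with library totals alone, a shift of 0.41, and the calls turned from 4451 higher and 6040 lower (42.4% of calls higher) to 5709 and 4364 (56.7%). Relative to the TMM median, Gata2 was at 2.25, Phox2a at 1.44, Hand2 at 1.28, Insm1 at 0.67, Myt1 at 0.41, Isl1 at 0.24, Mycn at 0.22 and Gata3 at 0.11, so every member lay above the middle of all genes, the last ones only slightly. That median depends on the filter. It was -0.11 with filterByExpr, where Gata3, Isl1 and Mycn lay below it, and -1.42 without a filter. With library totals, Insm1 and Myt1 were also called higher, at log2 fold changes of 0.66 and 0.40 (edgeR adjusted P = 0.00309 and 0.0273), and the fold changes of Myt1, Gata3, Isl1 and Mycn changed sign. Over all 14 alternatives, the adjusted P ranged from 0.00309 to 0.482 for Insm1 and from 0.0273 to 0.962 for Myt1. Gata2, Phox2a and Hand2 were called higher in each of the 14.

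A view that needs no scaling is the share that each gene takes of the 8 members' counts within a library. Gata2 took 21.7%, 23.9% and 23.6% in input, against 44.4%, 41.1% and 44.9% in the p-UPF1 IP, so it became by far the largest contributor among the members. Phox2a rose slightly, from 15.4 ± 0.832% to 16.5 ± 0.152% (SD, n = 3), and Hand2 stayed within its spread, at 17.8 ± 0.731% and 17.0 ± 1.10%. Myt1 went from 17.8 ± 0.917% to 9.30 ± 0.859% and Insm1 from 12.1 ± 0.238% to 7.59 ± 1.09%. Mycn, Isl1 and Gata3 went from 5.69%, 4.42% and 3.64% to 2.61%, 2.05% and 1.53%. The groups overlapped for Hand2 alone (exact permutation p = 0.5, two-sided), and the other members gave p = 0.1, the smallest possible here. A share that falls shows only that other members gained more.

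Against the rIgG IP, which measures RNA that sticks without the specific antibody, Phox2a and Gata2 were higher in the p-UPF1 IP. The rIgG IP counts were 2, 1 and 0 for Phox2a, 6, 5 and 1 for Gata2, 4, 5 and 2 for Hand2, and 6, 3 and 0 for Myt1. They were 2, 1 and 0 for Insm1, 1, 0 and 1 for Mycn, 3, 0 and 0 for Gata3, and 1, 0 and 0 for Isl1. With so few counts, the ratios of pooled CPM had wide exact 95% counting intervals, and those of 4 genes lay wholly above 1. Phox2a stood at 6.53-fold (2.22 to 31.8), Gata2 at 4.29-fold (2.45 to 8.33), Insm1 at 3.03-fold (1.02 to 14.8) and Hand2 at 1.83-fold (1.02 to 3.7). Intervals of the other 4 included 1: Isl1 2.46-fold (0.424 to 98.8), Mycn 1.55-fold (0.415 to 13.1), Myt1 1.24-fold (0.641 to 2.73) and Gata3 0.618-fold (0.198 to 3.11).

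In edgeR, 17.9% of 12033 genes were higher in the p-UPF1 IP than in the rIgG IP, 17.5% were enriched and 5.59% were lower. Among the members 2 were higher and also enriched, and 0 were lower (0 at an unadjusted P below 0.05, and 0 with DESeq2). Phox2a had a log2 fold change of 2.76 ± 0.58 (edgeR adjusted P = 9.26e-04) and Gata2 of 2.16 ± 0.34 (edgeR adjusted P = 3.61e-05), at 1.87 and 1.27 above the median of all genes, which was 0.89. Hand2, at 0.93 ± 0.41, lay at that median (edgeR adjusted P = 0.1), and Insm1 had 1.65 ± 0.70 (edgeR adjusted P = 0.0908). The calls over all genes, 2158 higher and 673 lower (76.2% higher), were 1501 and 839 (64.1%) with RLE factors and 1254 and 981 (56.1%) with DESeq2, which moved the median of all genes by -0.27 and -0.64. That median was 1.25 without a filter. Without rIgG IP replicate 1 it was 1.598, so the distances from it given here depend on that library, and the calls were 1309 and 311, while without rIgG IP replicate 2 the higher genes were 1413. Phox2a and Gata2 kept their calls in all 14 alternatives.

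The rIgG IP was also set against input, as the measure of unspecific recovery. None of the 8 members was higher (background 0.584% of 16280 genes) or lower (0.313%) in edgeR. At an unadjusted P below 0.05, 0 members were higher and 1, Phox2a, was lower, and DESeq2 called 0 in either direction. Phox2a was the member with the lowest fold change, -1.49 ± 0.57 (edgeR adjusted P = 0.35), with 0.414 times its input share in the rIgG IP (95% counting interval 0.0851 to 1.21). The median of all genes was -0.84, and it moved by 0.28 with RLE factors, 0.22 with library totals and 1.09 with DESeq2. It was -1.35 without a filter and -4.09 without rIgG IP replicate 1, the deepest rIgG IP library, so it is a poor reference here. The 95 higher and 51 lower genes (65.1% higher) became 124 and 28 (81.6%), 116 and 37 (75.8%) and 305 and 68 (81.8%). Without input replicate 2, 182 were higher and 134 lower, and without rIgG IP replicate 2, 25 were lower. All 3 comparisons reuse the same libraries, so they are not independent of one another.

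**Figure D2:**
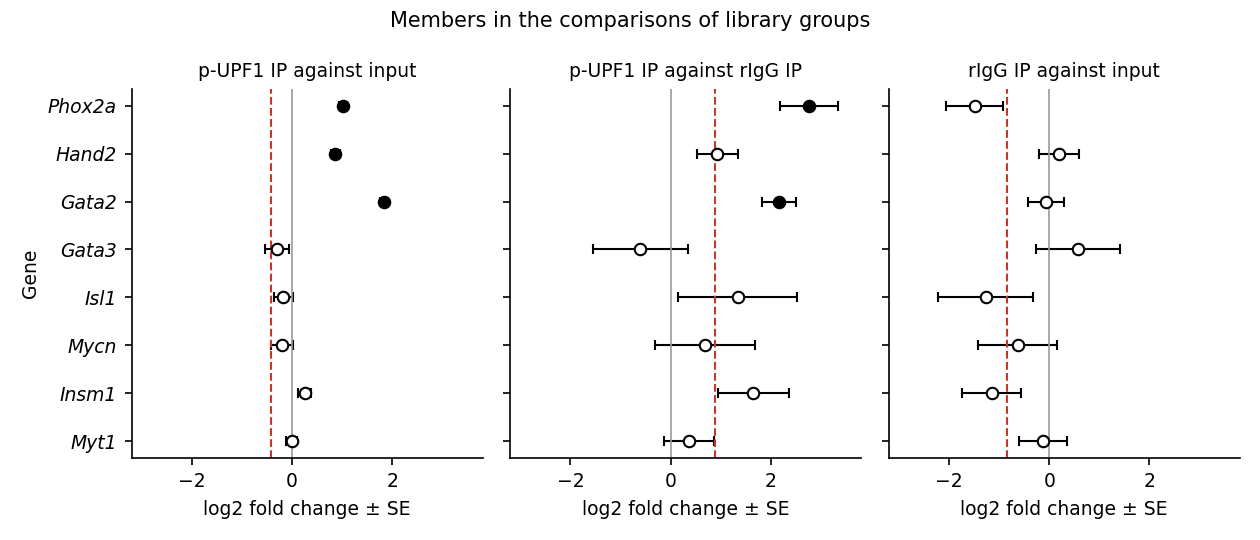
Log2 fold change ± SE (edgeR) of each member in the comparisons of the 3 library groups; filled points passed an adjusted P of 0.05, the grey line marks 0 and the dashed red line the median of all genes tested (-0.42, 0.89 and -0.84). Gata2 and Phox2a are filled in both comparisons of the p-UPF1 IP and Hand2 in that with input; with library totals, the points of Myt1, Gata3, Isl1 and Mycn in the comparison with input lie on the other side of 0.

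The counts are deposited per transcript, and a fragment that fits several transcripts of a gene was divided among them by the quantifier. For each transcript, the share of 35-nt windows found in no other transcript was therefore computed, 35 nt being the shortest read the authors kept. In the transcript fit of p-UPF1 IP against input, 8.55% of 42616 transcripts were enriched and 16.2% were depleted, against 3 and 2 of the 25 member transcripts tested. The enriched ones were Gata2-202, Phox2a-202 and Myt1-203, and the depleted ones Isl1-202 and Myt1-204. Scaling differs between the fits: Hand2, whose only transcript holds all its counts, had 0.56 in the transcript fit and 0.86 in the gene fit. In the transcript fit Hand2 was called higher (edgeR adjusted P = 0.0185). That call was lost with the replicate block (0.11) and without input replicate 1 (0.0517). Transcript counts also vary far more between libraries than gene sums, so a transcript that was not called is not thereby shown to be unchanged.

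Phox2a (chromosome 7, 101818313 to 101822726, plus strand, GRCm38) divided its counts between transcripts that can be told apart. Phox2a-201, the protein-coding mRNA of 3 exons, had 246, 217 and 251 counts in input, against 93, 118 and 113 in the p-UPF1 IP. Phox2a-202 is a single-exon transcript of 614 nt (101820746 to 101821359), annotated as retained intron. It had 20, 16 and 25 counts in input, 33, 51 and 46 in the p-UPF1 IP and 0 in each rIgG IP library. Its share of the gene's counts was 7.52%, 6.87% and 9.06% in input, against 26.2%, 30.2% and 28.9% in the p-UPF1 IP, so that it was higher in every IP library (exact permutation p = 0.1, two-sided, the smallest possible). Of its windows, 72.4% were its own, and 89.8% of those of Phox2a-201.

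In the transcript fit, Phox2a-202 had a log2 fold change of 2.57 ± 0.27 (edgeR adjusted P = 0.00198) and Phox2a-201 of 0.35 ± 0.11 (edgeR adjusted P = 0.0654). Phox2a-201 was itself called higher with DESeq2 (0.48, adjusted P = 0.0168), with filterByExpr (0.46, edgeR adjusted P = 0.00846) and with library totals (1.06, edgeR adjusted P = 0.00253), and its adjusted P reached 0.274 with the replicate block. Over the alternatives the adjusted P of Phox2a-202 ranged from 4.7e-13 to 0.0532, and it passed 0.05 in all but the fit with a replicate block. Over the rIgG IP it was at least 1.87-fold higher with library totals, and 2.66-fold with TMM, taking 3 counts as the floor over that group. Within 95 exonic bases at its 3' end, Phox2a overlaps Inppl1, a phosphatase gene on the other strand, which was itself higher in the p-UPF1 IP (log2 fold change 0.73 ± 0.13, edgeR adjusted P = 5.67e-04). Adaptors were ligated to the ends of the RNA fragments, which keeps the strand, but the strand setting of the quantification is not given in the sources used here. Whether reads from this stretch were assigned by strand is therefore not known.

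The end of the exon at base 101820968 of chromosome 7 tells these forms apart, because the spliced mRNA goes on with the next exon and the other form with intron. The boundary lies in the homeobox, in coding sequence. Capitals mark the 15 bases after the boundary, and the 15 before it are shared.
Phox2a-201: gaggctcgcgtgcagGTCTGGTTCCAGAAC
Phox2a-202: gaggctcgcgtgcagGTGCGTGGATACACG

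Gata2 (chromosome 6, 88193891 to 88207032, plus strand) gave most of its counts to the protein-coding Gata2-202, with 291, 271 and 342 in input, 6, 5 and 1 in the rIgG IP and 282, 371 and 335 in the p-UPF1 IP. Its log2 fold change was 1.62 ± 0.10 (edgeR adjusted P = 3.82e-04), and it was enriched in each alternative run for transcripts. As a share of the gene it held 77.8 ± 7.05% in input and 82.8 ± 4.82% in the p-UPF1 IP, and these ranges overlapped. Gata2-204, a retained-intron form described after its values were seen, had 59, 84 and 45 counts in input, against 35, 34 and 67 in the p-UPF1 IP, or 16.3 ± 5.36% and 11.3 ± 3.90% of the gene. Those shares overlapped (exact permutation p = 0.2, two-sided). Its log2 fold change was 0.999 ± 0.40, which was not called (edgeR adjusted P = 0.119). With library totals Gata2-204 was enriched (1.69, edgeR adjusted P = 0.0343). Over the rIgG IP, where it had 0 counts, it was at least 1.96-fold higher in assigned counts with library totals, and 2.78-fold with TMM (edgeR adjusted P = 0.0462). Of the windows of Gata2-204, 17.0% were its own. Only 3.61% of the windows of Gata2-202 were its own. Gata2-205, a single-exon retained-intron form also described after its values were seen, has 93.2% own windows and few counts, with 5, 10 and 7 in input and 1, 1 and 3 in the IP. It was not called (log2 fold change -0.65 ± 0.78, edgeR adjusted P = 0.551), and its sign flipped to 0.028 with library totals.

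Hand2 (chromosome 8, 57320983 to 57324633, plus strand) has 1 transcript in the table, of 2 exons. The noncoding gene Hand2os1 runs across it on the other strand and shares 461 exonic bases with it. Hand2os1 had 288, 276 and 287 counts in input, 8, 5 and 1 in the rIgG IP and 17, 31 and 33 in the p-UPF1 IP, so it was nearly as well counted as Hand2 in input and far less so in the IP. Its log2 fold change was -1.60 ± 0.15 (edgeR adjusted P = 5e-06), opposite to that of Hand2. For the shared bases, too, it is not known whether reads were assigned by strand. Insm1 (chromosome 2, 146221921 to 146225020, plus strand) is a single-exon gene, with all counts on its 1 transcript. Its log2 fold change over input was -0.05 ± 0.18 in the transcript fit (edgeR adjusted P = 0.841) and 0.25 in the gene fit. The sign thus differed between the fits, and Insm1 was called in neither.

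Isl1 (chromosome 13, 116298281 to 116309689, minus strand) had 43, 43 and 42 input counts on Isl1-201, its longest protein-coding form, and 31, 27 and 32 on the shorter protein-coding Isl1-202. In the p-UPF1 IP, Isl1-201 took 15, 25 and 17 counts, all of the gene, and Isl1-202 took 0 in each library. In assigned counts, against a floor of 3 over the group, Isl1-202 was at least 6.51-fold lower in the IP with library totals, and 10.7-fold with TMM (edgeR adjusted P = 0.0147). That bound takes the quantifier's division of counts as given, so it does not bound a change in the amount of that mRNA. The call was lost without input replicate 1 (0.07), 2 (0.0548) or 3 (0.0619) and with the replicate block (0.243), and the lowest adjusted P over the alternatives was 6.25e-05. Isl1-202 has 2.92% windows of its own, all around a single junction.

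Mycn (chromosome 12, 12936093 to 12941914, minus strand) had its counts assigned to different transcripts in different libraries. Mycn-202, its most-counted transcript, had 90, 83 and 76 counts in input, against 0, 19 and 0 in the p-UPF1 IP. Mycn-201, named after its values were seen, had 0, 10 and 17 in input, against 18, 0 and 35 in the IP, so in each IP library one of them took everything and the other nothing. Of the windows of Mycn-201 and Mycn-202, 4.70% and 5.14% occur in no other transcript, and neither was called. Without p-UPF1 IP replicate 2, Mycn-202 was called lower (edgeR adjusted P = 0.00585), with 0 counts in both IP libraries left, so the size of that change is not measured. Gata3 (chromosome 2, 9857078 to 9890034, minus strand) gave most counts to Gata3-201, with 67, 47 and 52 in input, against 9, 16 and 11 in the p-UPF1 IP (log2 fold change -0.73 ± 0.34, edgeR adjusted P = 0.175).

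Myt1 (chromosome 2, 181763332 to 181827797, plus strand) has 12 transcripts in the table, and its summed count hid a change of assignment. Myt1-203, a protein-coding form of 22 exons, had 0 counts in each input library, 2, 0 and 0 in the rIgG IP and 34, 71 and 56 in the p-UPF1 IP. Against the rIgG IP it was not called (log2 fold change 2.38 ± 0.88, edgeR adjusted P = 0.133). Myt1-204, a protein-coding model with an incomplete coding sequence, had 135, 146 and 168 in input, against 5, 0 and 0 in the p-UPF1 IP. Each was thus high where the other was at or near 0. In assigned counts, against the floor of 3 over the input group, Myt1-203 was at least 151-fold higher with TMM, and 247-fold with library totals. These bounds take the quantifier's division of counts as given, so they do not bound a change in the amount of that mRNA. The adjusted P of Myt1-203 was 0.00209 in edgeR, from 1.18e-12 to 0.0786 over the alternatives, and its call was lost with the replicate block alone. Myt1-204 had a log2 fold change of -4.84 ± 1.31 (edgeR adjusted P = 0.045, from 0.00203 to 0.141). Its call was lost without p-UPF1 IP replicate 2 (0.0698) or 3 (0.0699), without input replicate 1 (0.107), 2 (0.0945) or 3 (0.105), with library totals (0.0738) and with the replicate block (0.141). Without p-UPF1 IP replicate 1 it had 0 counts in both IP libraries left (edgeR adjusted P = 0.00259).

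Very little sequence carries that assignment, since Myt1-203 has 32 windows of its own (0.63%) and Myt1-204 has 34 (0.839%). Those of Myt1-203 span the junction after base 181801905 of chromosome 2, where it joins the exon at 181804927 to 181805141 and leaves out an exon of 114 nt at 181802916 to 181803029 that Myt1-201 includes. Both junctions are given below, with the first 15 bases shared and the downstream exon in capitals; Myt1-201 is shown for its sequence only.
Myt1-203: caatactcacagaagGCCCATGTGTTTTGT
Myt1-201: caatactcacagaagTTTATCTGGATGTCC

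**Figure D3:**
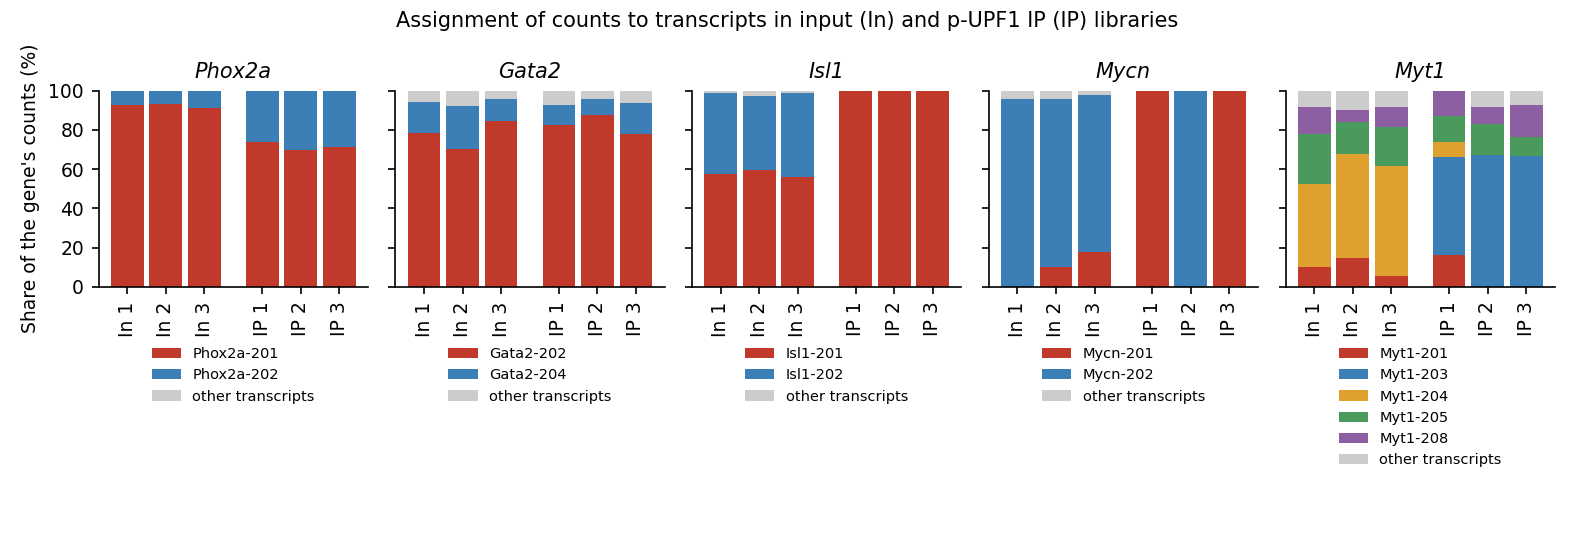
Share of each gene's counts assigned to its transcripts, in percent, in the 3 input (In) and 3 p-UPF1 IP (IP) libraries; forms with a mean share of at least 10% in either group have a colour. Phox2a-202 grows from 7.81% to 28.4% of Phox2a on average, Isl1-202 goes from 40.5% to 0%, the Mycn forms alternate between IP libraries, and Myt1-203 goes from 0% to 61.2% of Myt1.

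Transcript features that are known to bear on NMD were read from the annotation, as a description. Of 44359 complete protein-coding transcripts in the table, 0.604% have an exon junction more than 50 nt after the stop codon, 44.0% have an upstream open reading frame that closes before the start codon, and the median 3' UTR is 590 nt. None of the members' complete protein-coding transcripts has such a junction. Forms annotated as NMD targets or as retained introns, Phox2a-202 among them, are outside that set, so that absence says little. Myt1-211, annotated as an NMD target with 3 junctions of that kind, had 0 counts in all 9 libraries. Among the most-counted forms, upstream open reading frames numbered 5 in Hand2-201, 2 in Insm1-201 and 1 in Gata3-201, and 0 in Gata2-202, Phox2a-201, Isl1-201 and Mycn-202. The 3' UTR was 1538 nt in Gata2-202, 1292 nt in Gata3-201, 1199 nt in Isl1-201, 1189 nt in Insm1-201, 910 nt in Mycn-202 and 773 nt in Hand2-201, all above the median of all transcripts, and 581 nt in Phox2a-201, just below it. Myt1-203, the Myt1 form with most counts in the p-UPF1 IP, has 1 upstream open reading frame and a 3' UTR of 1724 nt, the longest of these. Whether these features go with the calls was not tested.

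Sequence sharing was searched in the sense strand of all transcripts, so the overlaps of Hand2 with Hand2os1 and of Phox2a with Inppl1 given above are not part of it. Gata3 likewise shares 155 exonic bases with Gm13256 on the other strand, which had 11 counts in input and 0 in either IP. No 35-nt window of Phox2a, Hand2, Gata2, Isl1 or Mycn occurs there in a transcript of another gene, and so in none of their paralogs. In Gata3, 44 of 3966 windows (1.11%) are shared, all with the overlapping gene 9230102O04Rik, in Insm1 28 of 3055 (0.917%) and in Myt1 8 of 7400 (0.108%).

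The members' near paralogs were compared next, 7 of 12 of which were tested in the p-UPF1 IP against input. By edgeR 4 were higher (57.1%, against 26.3% of all genes), 2 lower (28.6%, against 35.7%) and 1 neither, with a median log2 fold change of 0.78 against -0.42 for all genes. With library totals, which called 33.7% of all genes higher and 25.8% lower, the paralogs had 4 higher and 1 lower. Gata4, a GATA factor best known from heart and endoderm, was at 1.77 ± 0.09 (edgeR adjusted P = 5.42e-08), close to Gata2. Isl2, the second Islet gene, was at 2.14 ± 0.27 (edgeR adjusted P = 5.43e-05), whereas Isl1 was not called. Myc was lower, at -0.84 ± 0.10 (edgeR adjusted P = 3.85e-05), as was the Myt1 relative St18, at -0.64 ± 0.15 (edgeR adjusted P = 0.00417), a call that library totals did not give. Myt1l, another Myt1 relative named after its values were seen, was higher, at 1.34 ± 0.10 (edgeR adjusted P = 1.02e-06).

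Other transcription factors of noradrenergic cells gave 4 higher (22.2%), 6 lower (33.3%) and 8 neither among 18 tested of 25, close to the 26.3% and 35.7% of all genes, with a median of -0.36; with library totals (33.7% and 25.8% of all genes), 5 were higher and 1 lower. Tbx2, a T-box factor of the neuroblastoma core circuit, was at 2.59 ± 0.11, from 6.26 ± 0.876 to 37.9 ± 1.70 CPM (edgeR adjusted P = 1.55e-08). Satb1, a chromatin organiser, was at 1.09 ± 0.07 (edgeR adjusted P = 5.03e-07) and Sox4 at 0.74 ± 0.12 (edgeR adjusted P = 3.33e-04). The LIM-only cofactor Lmo1 was lower at -1.57 ± 0.12 (edgeR adjusted P = 1.21e-06), and Rorb at -0.995 ± 0.33 (edgeR adjusted P = 0.025), which library totals did not call.

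Dimer partners, cofactors and regulators gave 9 higher (32.1%), 12 lower (42.9%) and 7 neither among 28 tested of 31, with a median of 0.04; with library totals (33.7% and 25.8% of all genes), 14 were higher and 8 lower. Mnt, a MAX-binding antagonist of MYC proteins, was at 2.49 ± 0.10 (edgeR adjusted P = 1.73e-08). Ldb1, which bridges LIM and GATA complexes, was at 1.89 ± 0.09 (edgeR adjusted P = 3.44e-08), while its partner Lmo1 was lower, as given above. Tcf4, an E protein that pairs with HAND factors, was lower at -1.39 ± 0.10 (edgeR adjusted P = 6.11e-07). Huwe1, a ubiquitin ligase that acts on MYCN, was not called at 0.12 ± 0.07 (edgeR adjusted P = 0.197), and was higher with library totals. The acetyltransferase gene Ep300 was lower at -0.26 ± 0.07 (edgeR adjusted P = 0.0123), and its sign flipped to 0.15 with library totals.

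Of 17 tested of 22 genes for catecholamine synthesis, transport and granules, 10 were lower (58.8%, against 35.7% of all genes), 7 neither and 0 higher, with a median of -0.70. At an unadjusted P below 0.05 edgeR also had 0 higher, as did DESeq2, and library totals (33.7% and 25.8% of all genes) gave 1 higher and 8 lower. Chgb, a granule protein, went from 56.8 ± 4.69 to 13.9 ± 2.84 CPM (log2 fold change -2.02 ± 0.13, edgeR adjusted P = 3.58e-07). Slc18a2, the vesicular monoamine transporter, was at -1.25 ± 0.08 (edgeR adjusted P = 4.12e-07) and the granule gene Scg5 at -2.82 ± 0.18 (edgeR adjusted P = 4.18e-07). Npy, a neuropeptide, had 70 counts in input and 1 in the p-UPF1 IP, a ratio of 0.0658 (95% counting interval 0.00164 to 0.379). Scg3, at -0.42 ± 0.11 (edgeR adjusted P = 0.00727), and the reductase gene Spr, at -0.70 ± 0.23 (edgeR adjusted P = 0.0228), were called lower with TMM but not with library totals.

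Among receptors of sympathetic cells, 3 were higher (33.3%), 3 lower (33.3%) and 3 neither of 9 tested of 13, with a median of 0.17; with library totals (33.7% and 25.8% of all genes), 4 were higher and 2 lower. Ngfr, the low-affinity neurotrophin receptor, rose from 31.3 ± 3.98 to 122.1 ± 1.71 CPM (log2 fold change 1.96 ± 0.09, edgeR adjusted P = 4.62e-08), and Ltk was at 0.83 ± 0.19 (edgeR adjusted P = 0.00314). The neurotrophin receptor kinase Ntrk3 fell by 1.86 ± 0.11 on the log2 scale (edgeR adjusted P = 2.17e-07). Ret, the GDNF receptor kinase and the most-counted gene of that list, fell by 0.74 ± 0.07 (edgeR adjusted P = 9.45e-06). Cholinergic genes were few, with 1 higher (25%), 1 lower (25%) and 2 neither of 4 tested of 9 and a median of -0.29, and library totals (33.7% and 25.8% of all genes) gave 2 higher and 1 lower. The nicotinic receptor subunit Chrnb2 was at 1.33 ± 0.13 (edgeR adjusted P = 9.08e-06) and Chrna3 at -1.30 ± 0.08 (edgeR adjusted P = 3.03e-07), with Ache uncalled at 0.02 ± 0.10 (edgeR adjusted P = 0.867). Ache was called higher with library totals (0.43, edgeR adjusted P = 0.00836).

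Over the rIgG IP, where 17.9% of all genes were higher and 5.59% lower, higher genes were 4 of 17 tested noradrenergic factors, 3 of 6 paralogs, 4 of 28 partners and cofactors, 0 of 14 catecholamine genes (1 at an unadjusted P below 0.05 in edgeR, 0 with DESeq2), 1 of 4 cholinergic genes and 1 of 9 receptors. DESeq2 gave 3, 1, 3, 0, 1 and 1 in the same order. Lower genes were 1 noradrenergic factor, 1 cofactor and 2 catecholamine genes, and 0 in the other lists, where DESeq2 and edgeR at an unadjusted P below 0.05 each had 1, a receptor. The noradrenergic factors were 2 without rIgG IP replicate 2 or 3, and the paralogs 1 in either case. Gata4 was higher in both comparisons of the p-UPF1 IP, with 1.87 ± 0.44 over the rIgG IP (edgeR adjusted P = 0.00263). In the rIgG IP against input, edgeR called 0 genes of these lists in either direction. At an unadjusted P below 0.05 it had 1 higher and 1 lower noradrenergic factor, 2 lower cofactors and 3 lower catecholamine genes, and DESeq2 called 1 gene, a higher noradrenergic factor.

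Genes with levels most like those of the members were sought among 8659 genes by Euclidean distance of log2(CPM + 0.5) over the 6 input and p-UPF1 IP libraries. Nearest to Gata2 were Nmnat2 and Dgkz, at distances of 0.223 and 0.232, with log2 fold changes of 1.74 and 1.93. Tbl2 and Afg3l1 were nearest to Phox2a (0.175 and 0.199), and Tm9sf4 and Abr to Hand2 (0.211 for each). For Insm1 they were Prpsap1 and Sobp (0.197 and 0.232), for Myt1 Sesn3 and Eif3j2 (0.236 and 0.250), for Isl1 Vegfb and Eogt (0.286 and 0.300) and for Mycn Ttc19 and Arsg (0.345 and 0.438). Gata3 had under 10 counts in a p-UPF1 IP library and was not searched. Likeness in this sense is only of level in these libraries.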

How the data were processed

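RIP-seq libraries of N2A cells, 3 each of input, rIgG IP and p-UPF1 IP, were grouped by their labels. The authors trimmed reads with fastp, mapped them with STAR 2.7.0f to GRCm38 and quantified transcripts with Salmon 0.13.1 at its defaults, and deposited estimated counts per transcript as whole numbers, not scaled for library size. Counts were summed per symbol. Each pair of groups was tested on its 6 libraries with edgeR 4.0.16 in R 4.3.3 (TMM, quasi-likelihood, Benjamini-Hochberg over all genes), for genes with at least 10 summed counts; SE is the log2 fold change over the root of F. The test was checked on simulated data, where fold changes came back roughly as put in and unchanged genes passed at close to the nominal rate; at transcript level hardly any of a small changed set passed the adjusted threshold. Totals of 79010 to 474491 counts limit precision in the rIgG IP.

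Transcript features, coordinates and sequences came from GENCODE M21 (GRCm38; 139921 of 140658 transcripts matched by identifier), one release before the authors'. Intervals of count ratios were exact at 95%. Members and lists were chosen with earlier results of these data known; the lists, thresholds and alternatives were set before the data were examined here. Named were all members in every comparison, each member's most-counted transcript and those past both thresholds, the 3 most-counted, 2 highest and 2 lowest called genes of each list, the 2 genes nearest each member and the 2 most-counted markers of each list; others, such as further markers and junction partners, were named with their values seen. Some genes that these rules pick are not reported here. Alternatives were RLE factors, library totals, DESeq2 1.42.0, filterByExpr, no filter, all 9 libraries in one fit, a replicate block, dropping the 10 most-counted genes and leaving out each library. Replicate numbers come from the labels, which do not say that they pair cultures.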

Additional observations from a re-analysis of the deposited data

How the results depend on the processing

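Gata2, Phox2a and Hand2 against input, and Gata2 and Phox2a against the rIgG IP, kept their direction and their call in all 14 alternatives, with log2 fold changes of 1.75 to 2.24, 0.94 to 1.43, 0.78 to 1.27, 1.81 to 2.36 and 2.40 to 3.20. With library totals, 5 members were higher over input, 6 member transcripts were enriched and 1 was depleted, and Gata3 (0.10), Isl1 (0.24), Mycn (0.20) and Myt1 (0.40) changed sign. Myt1, at -0.011 over input, was also above 0 with RLE factors (0.0076), DESeq2 (0.0082), filterByExpr (0.017), all 9 libraries in one fit (0.017) and without the 10 most-counted genes (0.014). In the rIgG IP against input, Gata2 and Myt1 were above 0 with RLE factors (0.21 and 0.16), library totals (0.15 and 0.091) and DESeq2 (0.21 and 0.16). The cause was not tested.

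Leaving out 1 library at a time gave, against input, -0.50 to 0.022 for Mycn and -0.098 to 0.088 for Myt1, and over the rIgG IP -1.19 to 6.15 for Gata3 and up to 6.55 for Isl1. In the rIgG IP against input it gave -0.36 to 0.053 for Gata2, -8.21 to 1.07 for Gata3, down to -8.49 for Isl1, -0.20 to 0.65 for Hand2 and -0.58 to 0.12 for Myt1. The largest values of Gata3 and Isl1 come without rIgG IP replicate 1, which leaves them 0 rIgG IP counts, and do not measure a fold. Over all genes the same step gave 1309 to 2083 higher and 311 to 711 lower over the rIgG IP, 65 to 182 higher and 25 to 134 lower in the rIgG IP against input, and 0 to 3 depleted member transcripts.

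Over the rIgG IP, DESeq2 called 1254 genes higher. In the rIgG IP against input, 305 were higher with DESeq2 and 266 without a filter, while 28 were lower with RLE factors, 168 with filterByExpr, 295 without a filter and 112 with all 9 libraries in one fit. The cause was not tested.

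With the replicate block, 1368 genes were higher and 427 lower over the rIgG IP, and 1 member transcript was enriched over input and 0 depleted; it changed no call of a member gene. Deviations of same-numbered libraries correlated at -0.021, 0.055 and 0.050 between the p-UPF1 IP and input over 9639 genes, so the numbers were not taken to pair the libraries, and not every library correlated best with its own number. The cause was not tested. Depth in the rIgG IP limits every ratio to it.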
